A study of Mus musculus with 28 samples.

Results

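ATF4 is the transcription factor through which cells restore their supply of amino acids. In T cell isolates from the spleens of treated and untreated mice, 33 genes of that supply chain were followed. The genes were listed by name: the factor and its partners, stress and feedback genes, enzymes of serine, asparagine, proline and cysteine synthesis, enzymes of the folate (one-carbon) cycle, and amino acid transporters. All 33 symbols matched an Ensembl gene ID, out of 55413 IDs in each file. The low-count filter passed 32 of them into the tests. The exception was Cth, which makes cysteine from cystathionine and was listed at 0 in 19 of 27 libraries with never more than 4 counts.

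The integrated stress response begins when a kinase that senses scarce amino acids, misfolded protein or viral RNA phosphorylates the translation factor eIF2 alpha, which lowers protein synthesis while translation of Atf4 mRNA goes up. ATF4 then pairs with C/EBP family proteins on DNA and turns on transporters, synthesis enzymes and tRNA charging. mTORC1, the kinase complex that rapamycin inhibits, also raises ATF4 in growing cells, and dividing T cells need serine and one-carbon units for nucleotides.

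RNA was taken from magnetically isolated CD3+ T cells of the spleens of C57BL/6J mice, all male and aged 8 to 12 weeks, with 1 file per mouse and 28 mice. Untreated mice (NT, n = 7) were set against mice that had 1 dose a day for 11 days. The empty carrier (PS, n = 4) was a vesicle of PEG-b-PPS polymer given subcutaneously at 60 mg polymer/kg. Rapamycin was given at 1 mg/kg in 3 forms: subcutaneously in 0.2% CMC (R, n = 6), orally as Rapamune (RO, n = 6), or subcutaneously inside the vesicles together with 60 mg polymer/kg (rPS, n = 5). No group had CMC alone, so against NT the effect of a drug and that of its vehicle and handling cannot be told apart. The labels name no shared cages or preparation days, and p-values measure the spread between these mice.

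Total counts ran from 4286885 to 15696529 per library. Levels are in CPM (counts scaled to library size with TMM factors). A count of 0 allows up to 0.191 to 0.7 CPM, which is 3 counts over the plain library total, without TMM factors. In 7 libraries (NT replicates 3, 4, 5, 7 and 8, R replicate 3, RO replicate 3) the mean log2 CPM of 20 T cell genes was below that of 18 monocyte and macrophage genes. Cd3e, part of the CD3 complex that carries the receptor's signal, was at 10.8 to 69.1 CPM in those 7 libraries and at 130 to 509 CPM in the other 21. Lyz2, the myeloid lysozyme, was at 631 to 4420 against 19.5 to 483 CPM. The summed level of 15 B cell genes was 1665 to 21442 CPM over 27 libraries (RO replicate 7 not counted). That of the 20 T cell genes was 327 to 7879 CPM in the same libraries. Only in NT replicate 6 and rPS replicate 5 was the T cell sum above the B cell sum. Sums over different genes do not give shares of cells, but none of these libraries was a pure T cell sample by these markers. The file of RO replicate 7 listed 0 for 10 of the 33 genes (Atf4, Psat1, Mthfd1, Aldh18a1, Cth, Cbs, Slc3a2, Slc38a1, Slc38a2 and Jdp2), and it was left out of their values and fits. All 7 NT files also listed 0 for Malat1 and mt-Rnr2, which were at 16815 to 28412 and 1975 to 21861 CPM in 20 treated libraries. The part of that file difference in any comparison with NT was not tested. In such bulk samples fewer cells of a type and less RNA per cell cannot be told apart.

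ATF4 and C/EBP proteins bind a composite element, and the form TGATGNAA was searched on both strands of the 250 bases before each start site in the RefSeq promoters of build GRCm38.p6. It was found in 1134 of 32851 promoters (3.45%), and in 5 of the 36 promoters of the 28 listed genes that had an entry. The 5 stretches are shown because they place the element letter by letter in genes whose levels follow below, read 5′ to 3′ along the gene's strand with the match in capitals. Asns at chr6:7693210-7693248 (minus strand) carries it from 23 bases before the start site, Chac1 at chr2:119351033-119351072 (plus strand) 193 bases before, Jdp2 at chr12:85599367-85599406 (plus strand) 33 bases before, Nupr1 at chr7:126625557-126625596 (minus strand) 110 bases before, and Pycr1 at chr11:120643828-120643867 (minus strand) 103 bases before. In Chac1 and Nupr1 the match is on the opposite strand, so its letters appear reversed and complemented. A match is a description of these letters and not a measured binding site.
Asns: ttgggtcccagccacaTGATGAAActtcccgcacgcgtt
Chac1: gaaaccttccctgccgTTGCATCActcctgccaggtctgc
Jdp2: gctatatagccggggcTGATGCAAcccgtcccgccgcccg
Nupr1: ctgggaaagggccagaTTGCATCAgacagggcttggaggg
Pycr1: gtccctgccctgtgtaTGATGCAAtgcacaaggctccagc
The promoters of Aldh1l2, Slc1a5, Slc38a1, Slc7a5 and Cth had no entry.

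Per kilobase of exon, Atf4 mRNA had the highest mean level of the 33 when all libraries were pooled, 62.8 CPM per kb over 27 libraries, followed by Cebpb at 60.9 and the glutamine transporter Slc1a5 at 55.3 CPM per kb. Slc38a2 (32.3), Slc3a2 (26.1), Slc38a1 (22.5), Phgdh (21.1) and Shmt2 (20.9 CPM per kb) came next. At the other end lay Asns at 0.719, Cbs at 0.625, Pycr1 at 0.54, Aldh1l2 at 0.373 and Cth at 0.0247 CPM per kb. The order depended on the libraries pooled: in the 7 libraries poor in T cell transcripts Cebpb stood at 156.9 and Atf4 at 47.1 CPM per kb, and in the others at 28.9 and 68.3. By group, Cebpb was above Atf4 in NT (107 against 49.3 CPM per kb) and below it in PS (26.7 against 76.0) and rPS (35.7 against 87.1). The 2 were close in R (54.5 against 53.4) and RO (56.8 against 57.9, with RO replicate 7 left out for Atf4). In the 2 NT libraries not poor in T cell transcripts Cebpb was below Atf4 (13.2 against 45.3 CPM per kb). Asns, Cth, Pycr1, Aldh1l2, Chac1, Trib3, Nupr1 and the glycine carrier Slc6a9 had 4 counts or fewer in at least 1 library.

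**Figure D1:**
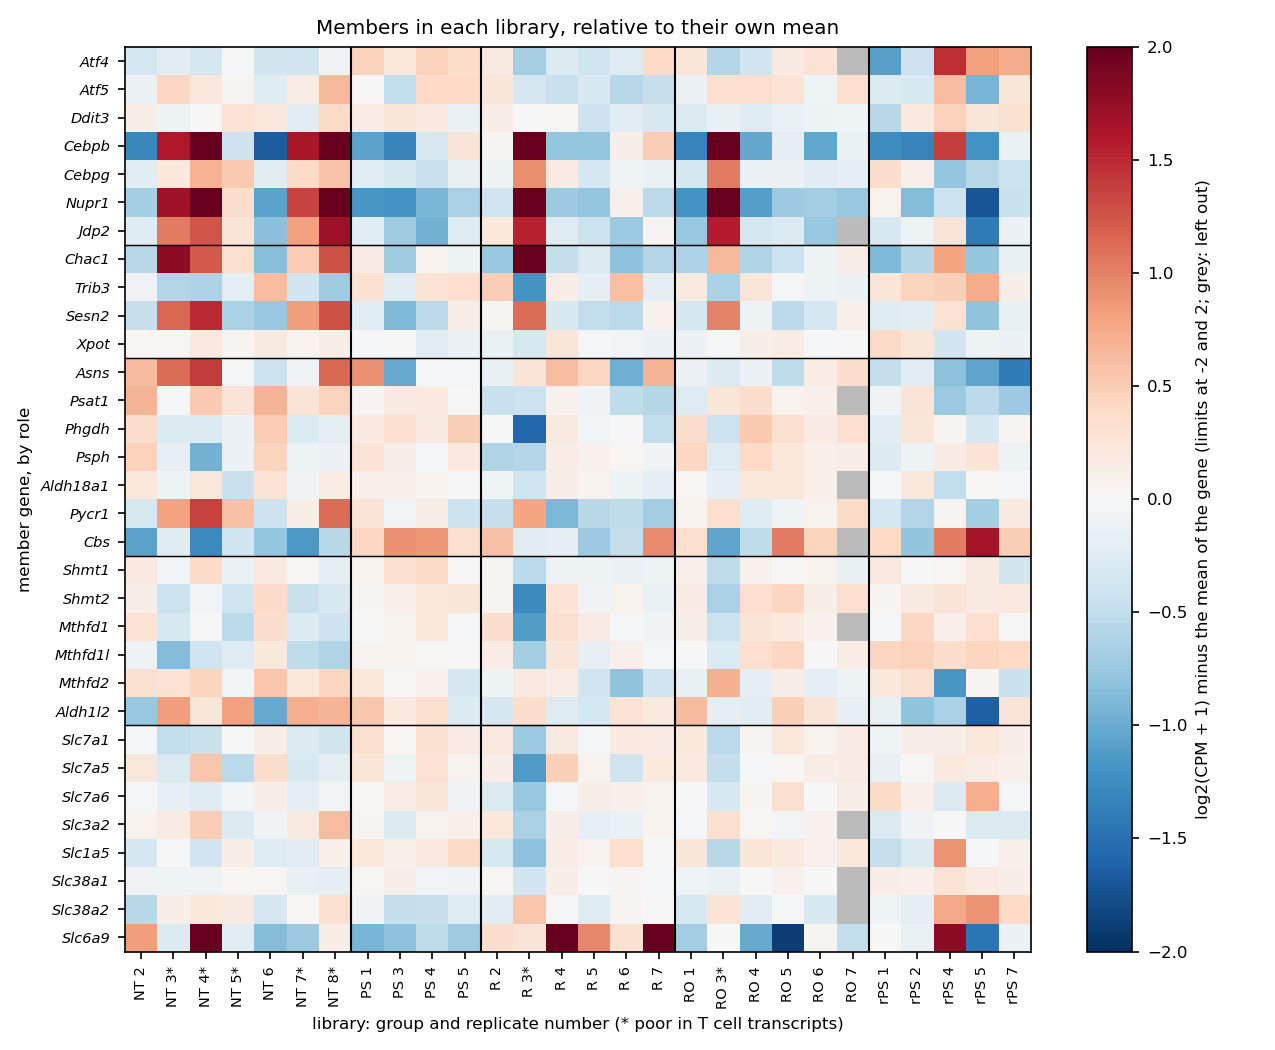
Colour gives log2(CPM + 1) of 32 genes (rows, by role) in 28 libraries (columns, by group), relative to the gene's own mean, and grey marks values left out for RO replicate 7. Cebpb, Nupr1, Jdp2 and Sesn2 are red in most libraries marked with an asterisk, which are poor in T cell transcripts, and Atf4 is at its highest in rPS replicate 4 (385 CPM).

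Loaded vesicles against untreated mice gave the only comparison in which several of these genes moved. Of 32 tested genes, 4 were higher in rPS (Atf4, Cbs, Mthfd1l and Slc38a1) and 2 were lower (Psat1 and Asns) at an adjusted p under 0.05 (edgeR quasi-likelihood test, Benjamini-Hochberg over 17132 genes). Among all genes tested 22.8% passed in this comparison, 10.9% higher and 11.9% lower, so 6 of 32 (18.8%) is near the background and says nothing of the set as a whole. In R against NT 1 gene was lower, Psat1, where 0.841% of all genes passed, 0.07% higher and 0.77% lower. In PS against NT 1 gene was higher, Cbs, where 7.5% of all genes passed. In RO against NT none passed, where 0.0117% of all genes did. In that comparison 3 of the 32 had an unadjusted p under 0.05, and DESeq2 called none (1.47% of all genes). The share of all genes at an unadjusted p under 0.05 is not given here or below, and nothing is read from such counts.

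**Figure D2:**
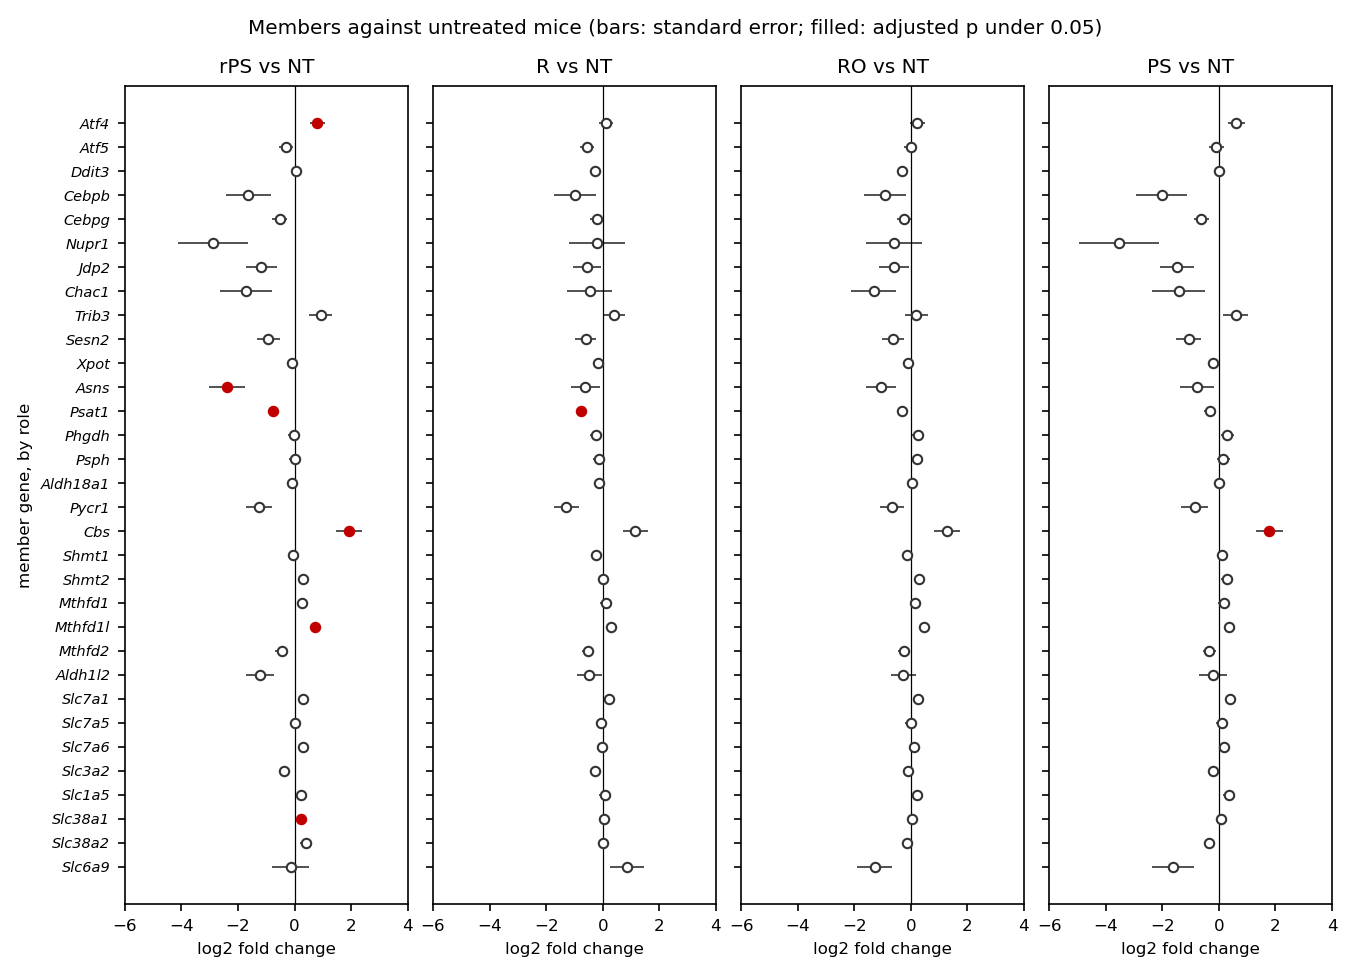
Points are log2 fold changes of 32 genes against NT with the standard error as bars, 1 panel per treated group, filled where the adjusted p was under 0.05. Filled points are 6 for rPS, 1 for R (Psat1), none for RO and 1 for PS (Cbs).

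Atf4, the factor itself, was higher in rPS than in NT but spread widely among the rPS mice. Its level was 64.0 CPM in rPS replicate 1, 104 in replicate 2, 385 in replicate 4, 244 in replicate 5 and 230 in replicate 7. In NT it ran from 104 to 136 CPM with a median of 109, so 3 rPS libraries were above every NT library and the other two were below every NT library. The log2 difference was 0.81 ± 0.27 (SE, a 1.75-fold difference, adjusted p = 0.036 by edgeR), and the SD was 127 CPM in rPS against 13.1 in NT. PS mice had 161, 178, 189 and 189 CPM, all above every NT library, and the log2 difference, 0.62 ± 0.29, was short of the threshold (adjusted p = 0.14). R mice ran from 86.0 to 181 CPM with a median of 114, and RO mice had 91.3 to 169 CPM with a median of 156, both overlapping NT. Leaving out any of rPS replicates 4, 5 and 7 or NT replicates 3, 4 and 7 ended the call, with a log2 difference of 0.47 to 1.05 over all single omissions. It also ended without the 7 libraries poor in T cell transcripts (0.94, adjusted p = 0.163) and with marker covariates (0.51, adjusted p = 0.341).

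The other 6 transcription factors did not pass the edgeR test in any comparison. Of all 7 factors, 4 had an unadjusted p under 0.05 in rPS against NT and 5 in PS against NT. Among all genes 22.8% and 7.5% passed there even after adjustment, so nothing is read from these counts. DESeq2 called Nupr1 in both comparisons (-2.83 and -3.58), where it called 23.6% and 15.7% of all genes. Cebpb, a dimer partner of ATF4 that is abundant in myeloid cells, ran from 17.2 to 369 CPM in NT with a median of 173, and had 21.8, 26.3, 44.8 and 68.0 CPM in PS. R ran from 32.6 to 227 CPM (median 60.2), RO from 21.8 to 335 (median 38.4), and the 5 rPS libraries had 23.3, 21.7, 148, 24.1 and 51.2 CPM. The log2 difference of rPS from NT was -1.63 ± 0.81 (adjusted p = 0.14), and without the 7 libraries poor in T cell transcripts it was 1.41 (adjusted p = 0.172), the other sign. On the other strand 20.7% of its exon length overlaps Tmem189, so its reads may be shared. Nupr1, a small stress-induced nuclear protein, was at 3.71 to 46.8 CPM in those 7 libraries and at 0.133 to 2.96 in the other 21, with no overlap. Jdp2, a repressor that can pair with ATF4 family proteins, was at 7.17 to 21.1 against 1.60 to 7.21 CPM. Their summed monocyte and macrophage markers were 3450 to 18693 CPM in those 7 libraries against 462 to 3496 CPM in 20 others (RO replicate 7 not counted), and their part in these results was not tested. Cebpg, another dimer partner, was at 89.4 to 159 against 44.7 to 98.7 CPM. Atf5, a related factor under the same translational control, and Ddit3 (CHOP), the factor of prolonged stress, stayed between 3.20 and 11.6 CPM and between 9.92 and 21.1 CPM over all libraries.

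**Figure D3:**
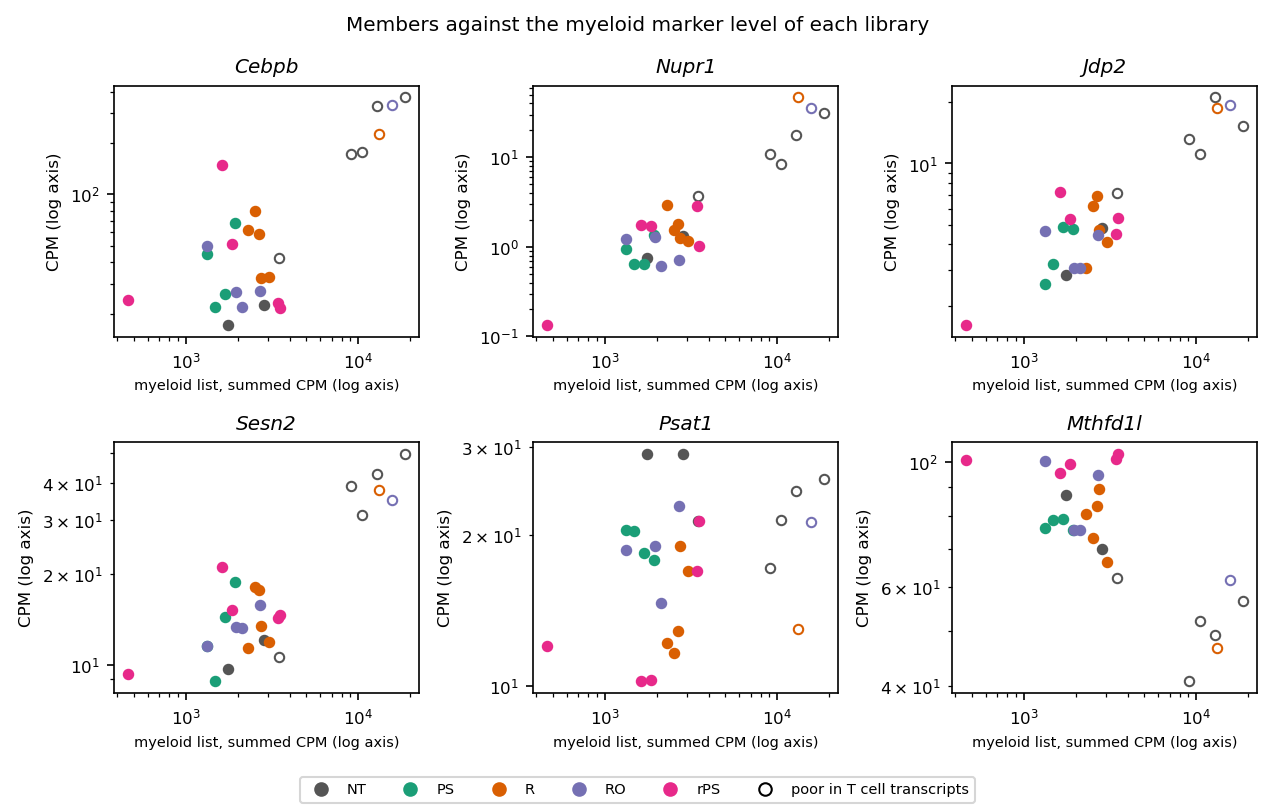
Each point is a library, with the summed CPM of 18 monocyte and macrophage genes on the x axis and the CPM of 1 gene on the y axis, both on log scales; hollow points are the 7 libraries poor in T cell transcripts, and RO replicate 7 is not shown. Hollow points lie apart for Nupr1 (3.71 CPM and above) and for Mthfd1l (62.2 CPM and below).

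The 4 stress and feedback genes gave no call in any comparison by edgeR or DESeq2. In rPS against NT, where 22.8% of all genes passed after adjustment, 2 of them had an unadjusted p under 0.05. Xpot, which exports tRNA from the nucleus, varied little: NT libraries had 63.9 to 72.1 CPM, PS 54.3 to 63.5, R 49.9 to 74.4, RO 57.8 to 69.6 and rPS 47.7 to 82.6. Sesn2, a leucine sensor that restrains mTORC1, ran from 9.71 to 49.9 CPM in NT with a median of 31.2, and from 9.33 to 21.1 CPM in rPS. Its log2 difference of rPS from NT was -0.93 with all libraries (adjusted p = 0.0959) and 0.45 without the 7 (adjusted p = 0.3). Chac1, which degrades glutathione, was at 1.73 to 9.99 CPM in the 7 libraries and at 0.18 to 2.73 in the others. Trib3, a pseudokinase that feeds back on ATF4, went the other way with 0.166 to 1.36 against 1.28 to 3.47 CPM.

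Of the serine synthesis enzymes, Psat1 passed as lower than NT in both groups injected with rapamycin. PS and RO differed from NT in the same direction without passing. Psat1, the aminotransferase of the second step, was at 29.1, 17.2, 25.9, 21.4, 29.1, 21.4 and 24.5 CPM in NT replicates 2 to 8. The rPS libraries had 16.96, 21.4, 10.2, 12.0 and 10.3 CPM, and R libraries ran from 11.6 to 18.99 with a median of 12.9. Of the rPS libraries 4 lay below every NT library, and of the R libraries 5 did. The log2 difference from NT was -0.76 ± 0.19 in rPS (0.59-fold, adjusted p = 0.00707) and -0.76 ± 0.18 in R (0.591-fold, adjusted p = 0.0353), which share the NT mice. Without the 7 libraries and RO replicate 7 the difference was -1.02 in rPS (adjusted p = 0.0115) and -0.999 in R (adjusted p = 0.0285), against 2 NT mice, where 14.7% and 3.58% of all genes passed. With the B cell, myeloid and red cell marker levels as covariates it was -0.73 (adjusted p = 0.0353) and -0.78 (adjusted p = 0.0211). PS libraries had 17.8 to 20.5 CPM and RO libraries 14.7 to 22.9 CPM, with log2 differences from NT of -0.33 and -0.31 that did not pass (adjusted p = 0.245 and 0.417). Without the 7 libraries and RO replicate 7 the PS and RO differences were -0.58 and -0.61, and neither passed (adjusted p = 0.157 and 0.194). Leaving out rPS or other libraries one at a time never ended the rPS call, but the R call ended without NT replicates 2, 4 or 8 or R replicates 2, 5, 6 or 7. Taking the 0 listed for Psat1 in RO replicate 7 as a measurement ended both calls (adjusted p = 0.342 in rPS and 0.639 in R).

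The enzymes on both sides of Psat1 gave no call. Phgdh, the first step from glycolysis, had 41.2 to 72.0 CPM across NT (median 44.6), with PS at 57.5 to 72.0, R at 16.5 to 57.2 (median 49.4), RO at 37.2 to 73.1 and rPS at 39.5 to 60.2. The log2 difference was -0.03 in rPS (95% interval -0.45 to 0.38) and -0.23 in R (-0.63 to 0.17). In the covariate fit Phgdh was lower in R by -0.60 (adjusted p = 0.0156). Psph, the last step, differed by 0.01 in rPS (-0.40 to 0.42) and by -0.13 in R (-0.52 to 0.25), and 10.4% of its exon length overlaps Cct6a on the other strand, so its reads may be shared. Whether Psat1 differed from these neighbours in its response was not tested.

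Asns, which makes asparagine, was scarce everywhere and lowest in rPS. It stood at 0.902, 1.26, 0.497, 0.267 and 0 CPM in the rPS libraries, against 0.964 to 5.94 CPM in NT (median 3.11). In the rPS libraries 3 counts amount to 0.333 to 0.7 CPM of plain totals, without TMM factors. Only rPS replicate 2 overlapped NT. The log2 difference was -2.38 ± 0.64 (0.192-fold, adjusted p = 0.0115), and -1.64 without the 7 libraries (SE 0.82, adjusted p = 0.179), a fit with 2 NT mice. PS had 0.321, 1.59, 1.59 and 3.99 CPM, R ran from 0.342 to 3.24 and RO from 0.86 to 2.35 CPM.

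Cbs, which joins homocysteine and serine on the way to cysteine, passed as higher than NT in both vesicle groups. R and RO differed from NT in the same direction without passing. NT ran from 1.02 to 3.15 CPM with a median of 1.86. PS had 5.11, 5.54, 7.97 and 8.17 CPM, all above NT, and rPS had 5.41, 1.83, 8.95, 14.5 and 5.90 CPM, of which replicate 2 lay within NT. The log2 difference from NT was 1.92 ± 0.46 in rPS (3.77-fold, adjusted p = 0.00623) and 1.79 ± 0.48 in PS (3.45-fold, adjusted p = 0.0381), both against the same NT mice. R ran from 1.95 to 8.38 CPM and RO from 1.35 to 9.09, with log2 differences of 1.16 and 1.29 that did not pass (adjusted p = 0.227 and 0.216). In the covariate fit the rPS difference was 0.77 (adjusted p = 0.357), and the PS call ended without any of the 4 PS libraries or NT replicates 3, 4, 7 or 8.

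The proline enzymes gave no call. Aldh18a1, which starts proline synthesis, stayed between 33.8 and 58.3 CPM over 27 libraries and differed by -0.10 in rPS (adjusted p = 0.579). Pycr1, which finishes it, was at 2.17 to 6.41 CPM in the 7 libraries against 0.554 to 2.75 in the others, with a log2 difference in rPS of -1.26 that narrowly missed the threshold (adjusted p = 0.0506) and was 0.17 without the 7. DESeq2 called Pycr1 in rPS against NT (adjusted p = 0.0346).

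**Figure D4:**
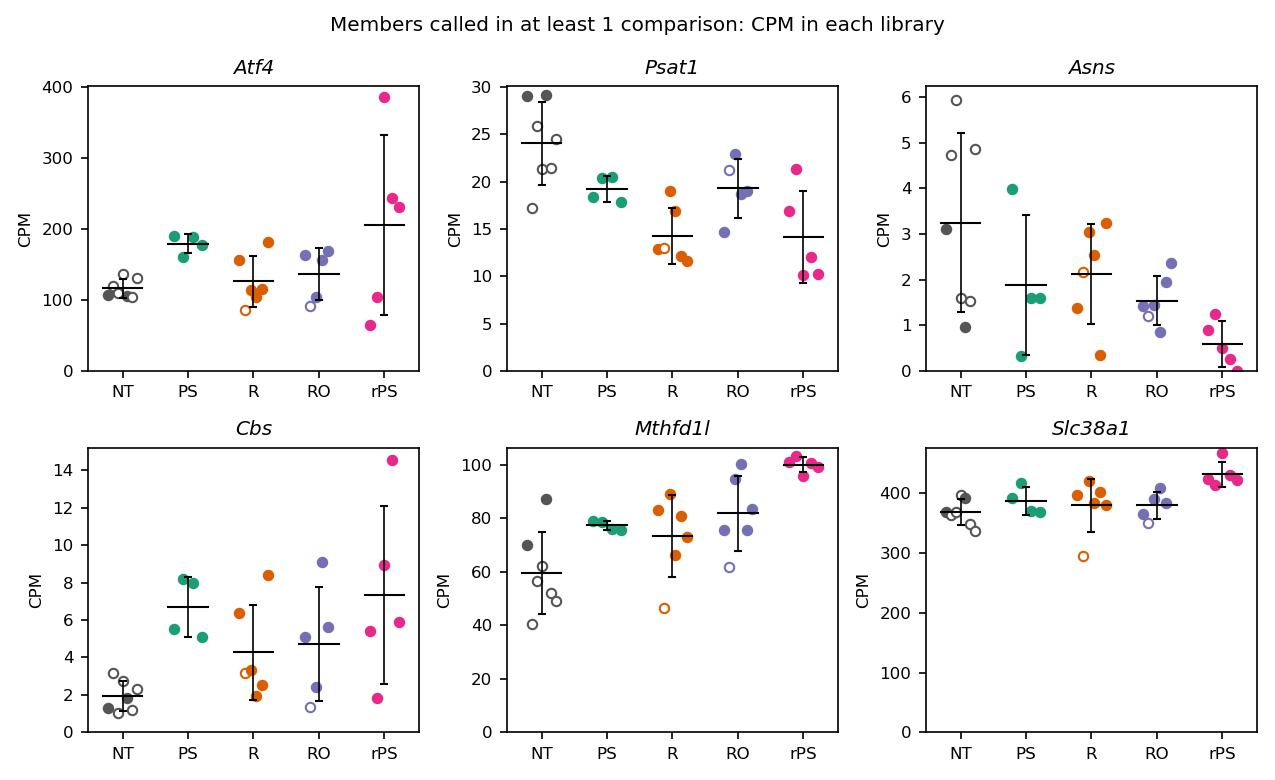
CPM of the 6 genes that passed the test in at least 1 comparison, 1 point per library by group, with the mean as a line and the SD as a bar; hollow points are libraries poor in T cell transcripts. Psat1 is lowest in R and rPS, Cbs is above all NT libraries in PS, and Mthfd1l lies at 95.7 to 103 CPM in rPS, above all NT libraries.

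In the folate cycle, Mthfd1l was higher in every rPS library than in any NT library. This mitochondrial enzyme releases formate from formyl-folate, and it was at 101, 103, 95.7, 101 and 99.2 CPM in rPS. NT ran from 40.7 to 87.3 CPM with a median of 56.5, PS had 75.6 to 79.0, R 46.6 to 89.3 (median 77.0) and RO 61.7 to 100.3 CPM (median 79.6). Every rPS library was above every NT, PS and R library, and RO replicate 5 overlapped. The log2 difference from NT was 0.73 ± 0.15 (1.66-fold, adjusted p = 0.00246). The 7 libraries poor in T cell transcripts had 40.7 to 62.2 CPM and the other 21 had 66.5 to 103, with no overlap. Without them the log2 difference of rPS from NT was 0.35 (adjusted p = 0.0827), and with the marker covariates 0.43 (adjusted p = 0.0418).

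The remaining folate enzymes did not pass. Shmt2, which splits serine in mitochondria, had 46.1 to 82.4 CPM across NT (median 50.5), with PS at 65.8 to 74.9, R at 25.6 to 76.6 (median 62.7), RO at 39.9 to 85.2 and rPS at 65.9 to 75.6, a log2 difference of 0.30 in rPS (95% interval -0.07 to 0.68). Mthfd2, the enzyme before Mthfd1l, had log2 differences from NT of -0.46 in rPS and -0.54 in R that did not pass (adjusted p = 0.134 and 0.244). The cytosolic enzymes Shmt1 and Mthfd1 differed in rPS by -0.07 and 0.27. Aldh1l2, which oxidises formyl-folate in mitochondria, was at 0.133 to 5.28 CPM and was called in rPS against NT by DESeq2 only (-1.22, adjusted p = 0.0451). Its edgeR difference there was 0.73 without the 7 libraries, the other sign (adjusted p = 0.447), and -0.15 with marker covariates (adjusted p = 0.899). A share of 14.1% of its exon length overlaps D10Wsu102e on the other strand.

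Of 8 transporters, 1 passed in 1 comparison. Slc38a1, a neutral amino acid carrier, had 424, 414, 468, 431 and 422 CPM in rPS, each above all 7 NT libraries (337 to 398, median 368). The difference was small, 0.23 ± 0.08 on the log2 scale (1.17-fold, adjusted p = 0.0461), and the call ended in 20 of 28 single omissions. Slc38a2, the carrier induced by amino acid scarcity, was at 259, 240, 469, 514 and 365 CPM in rPS, 188 to 345 in NT (median 304) and 199 to 263 in PS, with overlap in both. Its difference in rPS was 0.39 ± 0.19 (adjusted p = 0.133) against NT, and 0.86 without the 7 libraries (adjusted p = 0.0191). R had 231 to 407 CPM and RO 222 to 335 CPM of it. The leucine exchanger subunits did not pass: Slc7a5 differed by 0.03 and its heavy chain Slc3a2 by -0.39 in rPS (adjusted p = 0.94 and 0.0533). The glutamine carrier Slc1a5 differed by 0.23, and the cationic amino acid carriers Slc7a1 and Slc7a6 by 0.30 and 0.31, none passing. Slc6a9, a glycine carrier, was erratic at 0.246 to 19.5 CPM, and 27.8% of its exon length overlaps Ccdc24 on the other strand.

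Among treated groups no listed gene passed in any of the 6 comparisons by edgeR, and DESeq2 called none. Over all genes 0.0817% passed in rPS against PS, 0.0175% in R against PS, 0% in RO against PS, 0.0117% in rPS against R, 0.0175% in rPS against RO and 0% in R against RO. The listed genes with an unadjusted p under 0.05 numbered 4, 5, 1, 5, 3 and 4 in that order. Nothing is read from these counts, as the share over all genes at that level is not given. With and without rapamycin in the vesicle (rPS minus PS), the log2 difference of Atf4 was 0.19 (95% interval -0.43 to 0.81) and that of Cbs was 0.13 (-0.87 to 1.13). Intervals of rPS minus PS on one side of 0 before adjustment were those of Slc38a2 (0.72, 0.29 to 1.15), Mthfd1l (0.37, 0.03 to 0.71), Psat1 (-0.44, -0.84 to -0.03) and Asns (-1.60, -2.97 to -0.23), with adjusted p of 0.416, 0.938, 0.956 and 0.84. At the same rapamycin dose, Psat1 in rPS and R differed by -0.00235 (-0.38 to 0.37), and R minus RO was -0.45 (-0.82 to -0.08, adjusted p = 1). The rPS minus R difference of Atf4 was 0.70 (0.14 to 1.25, adjusted p = 0.378).

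Many of these differences changed sign without the 7 libraries poor in T cell transcripts. When they and RO replicate 7 were left out, 15 of the 32 genes changed sign in rPS against NT, 12 in R against NT, 14 in RO against NT and 17 in PS against NT. The share of all genes that changed sign is not given, and differences near 0 are counted too. Nothing particular to the listed genes is read from these counts. In rPS against NT the median log2 difference of the 32 genes was -0.07 with all libraries, beside -0.02 over all genes. The called genes kept their signs in that fit, and 3 genes passed where 14.7% of all genes did: Psat1 (-1.02), Cbs (2.16) and Slc38a2 (0.86). That fit has only 2 NT mice. Keeping NT replicate 5, chosen after seeing the data, left Psat1 alone, where 3.19% of all genes passed.

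**Figure D5:**
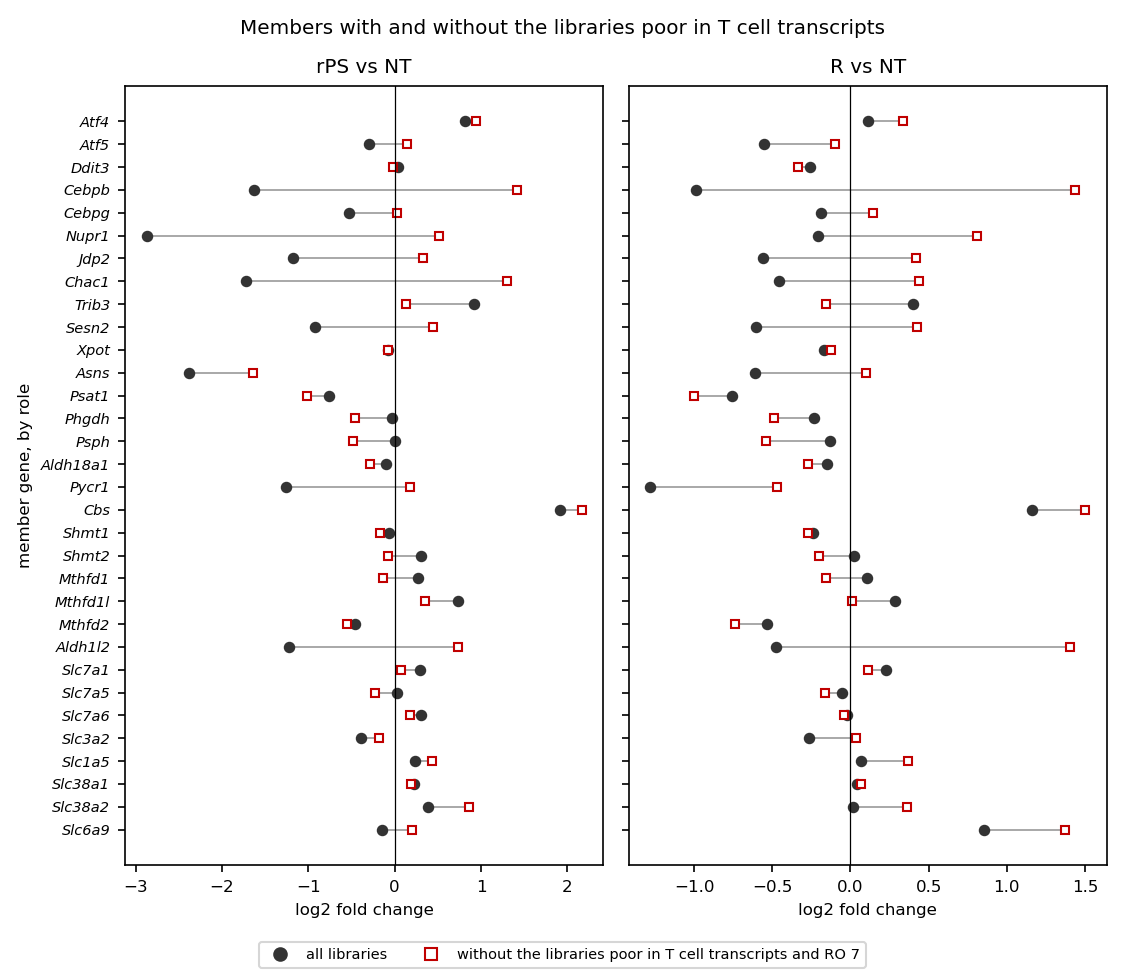
Log2 fold changes of 32 genes in rPS and R against NT with all libraries (circles) and without the 7 libraries poor in T cell transcripts and RO replicate 7 (squares). Cebpb in rPS goes from -1.63 to 1.41, while Psat1 goes from -0.76 to -1.02 and Cbs from 1.92 to 2.16.

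Neighbouring genes of the pathway were read from lists of related genes. Upstream of ATF4, 2 of 10 genes rose and 2 fell in rPS against NT, where 10.9% of all genes rose and 11.9% fell. Ppp1r15a (GADD34), which brings the phosphatase that ends the response, was at 37.7, 33.2, 391, 200 and 180 CPM in rPS and at 29.8 to 43.3 in NT (log2 difference 2.18 ± 0.50, adjusted p = 0.00455). The 3 rPS libraries with Ppp1r15a above every NT library were those with Atf4 above every NT library. This was not particular to rPS. Ppp1r15a ran from 27.1 to 151 CPM in R (median 61.1) and from 21.8 to 103 in RO (median 52.5). RO replicates 1, 5 and 6 and R replicates 2 and 7 were above every NT library in both genes. R replicates 4 and 5 were above every NT library in Ppp1r15a only. The 4 PS libraries had 95.9 to 164 CPM of Ppp1r15a (1.89, adjusted p = 0.04 by edgeR). Without the 7 libraries the differences were 2.40 in rPS and 2.11 in PS, and neither passed (adjusted p = 0.0699 and 0.13). Gcn1 (listed as Gcn1l1), a partner of the amino acid sensing kinase, rose by 0.66, and the kinases Eif2ak2 (PKR) and Eif2ak1 (HRI) fell by 1.34 and 0.50. Eif2ak2 was at 48.0 to 99.4 CPM in the 7 libraries poor in T cell transcripts and at 13.9 to 44.2 in 20 others. Without the 7, the differences of Eif2ak2 and Eif2ak1 in rPS were -0.71 and -0.39 (adjusted p = 0.0407 and 0.0591 by edgeR). That of Gcn1 in rPS was 0.70 in the same fit (adjusted p = 0.0274 by edgeR), which has 2 NT mice. Gcn1 ran from 244 to 307 CPM in NT, 311 to 652 in rPS, 262 to 394 in R and 256 to 395 in RO. PS against NT, where 7.5% of all genes were called, gave the same directions for Gcn1 (0.50) and Eif2ak1 (-0.54), neither of which passed without the 7, and R and RO gave no call in this list.

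No aminoacyl-tRNA synthetase passed in rPS against NT: 0 of 20 by edgeR, with 2 at an unadjusted p under 0.05. Of 17 other transporters and ATF4 targets 3 fell: Herpud1 (-0.69), Slc7a11, the cystine importer (-3.07), and Slc36a4 (-0.90), where 11.9% of all genes fell. Slc7a11 was at 7.91 to 24.1 CPM in the 7 libraries poor in T cell transcripts and at 0.133 to 2.62 in the other 21, and without the 7 its difference was 0.86, the other sign (adjusted p = 0.432). Herpud1 and Slc36a4 did not pass in that fit (-0.40 and -0.63, adjusted p = 0.267 and 0.159). In the folate and methionine cycle 2 of 19 rose, Fpgs (0.80) and Mtfmt (0.31), and Tyms, which makes thymidylate, was among those that fell (-0.93). Fpgs, Mtfmt and Tyms did not pass without the 7 libraries (0.39, 0.23 and -0.67), and Fpgs was at 5.49 to 12.07 CPM in the 7 against 12.09 to 32.1 in the others. Of 12 purine synthesis genes none passed, with 4 at an unadjusted p under 0.05, and of 11 glutamine and proline genes Got2 fell (-0.62, and -0.42 without the 7, adjusted p = 0.0505). The share of all genes called in rPS against NT, in either direction, was 22.8%, and nothing particular to a list is read from these counts. In R against NT, where 0.841% of all genes were called, the transporter Slc1a4 fell (-1.70, and -1.20 without the 7, adjusted p = 0.217) and no other gene of these 6 lists passed. Mitosis genes fell together: 23 of 23 in rPS, 9 of 23 in R and 6 of 23 in PS, where 22.8%, 0.841% and 7.5% of all genes were called. The medians were -1.98 in rPS and -1.09 in R. Their summed level was 103 to 327 CPM in rPS, 199 to 574 in R, 325 to 454 in PS and 416 to 1370 in NT. It was 443 to 1370 CPM in the 7 libraries poor in T cell transcripts and 103 to 673 in 20 others. The myeloid list fell with the mitosis genes in rPS, 12 of 18 genes. The part of either list in the results for Psat1 or Tyms was not tested. Of the other cell markers in rPS against NT, 17 of 18 neutrophil, 14 of 15 plasma cell, 8 of 13 NK cell, 5 of 12 dendritic cell and 3 of 15 B cell genes fell. None of 20 T cell or 14 red cell genes passed (1 and 0 at an unadjusted p under 0.05). The summed level of the 20 T cell genes had a median of 983 CPM in NT (570 to 7879) and 4101 CPM in rPS (2717 to 7015).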

How the data were processed

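RNA of 28 libraries was measured. The deposited files hold expected counts per Ensembl gene, made by the authors, and per library 21.3% to 25.0% of its nonzero values had a fractional part. Per the submitters' processing notes, Trimmomatic 0.39, STAR 2.7.5a, Cufflinks 2.1.1 and Cuffdiff were used with build GRCm39. The counting tool, annotation release and strandedness were not given in the sources used here, so genes with overlapping neighbours are uncertain.

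The expected counts were rounded and joined by gene ID, and 52082 of 55413 IDs took a symbol from GENCODE M21 (GRCm38). Of 243 genes in the related lists 1 had no match. No pair of libraries was a repeat (lowest chi-square per gene 3.66). Tests used edgeR 4.0.16 (quasi-likelihood, robust, two-sided, TMM, filterByExpr by group) in R 4.3.3. Genes above 0 in RO replicate 7 were fitted on 28 libraries and the others on 27, with Benjamini-Hochberg adjustment over 17132 genes; 10 comparisons were made and an adjusted p under 0.05 counts as called. Levels are TMM-scaled CPM. Alternatives were DESeq2 1.42.0 (its own filter, adjusted within each gene set), its size factors in edgeR, no filter, the zeros as listed, marker covariates (B cell, myeloid and red cell mean log2 CPM), a replicate block, plain-total CPM, and leaving out libraries. Exon lengths and promoters are of GRCm38. On simulated data of 17132 genes, edgeR recovered 31% of 2-fold and 58% of 4-fold changes in rPS against NT, with 5 false calls.

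Genes described sample by sample were those called in any comparison and the 2 most abundant of each role; list genes are named up to 3 per list by p, except that Eif2ak1 and Mtfmt were added to complete a count after their values were seen. The listed genes, the related lists and the alternatives were chosen with earlier results of these data known. Some items are not reported here.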

Additional observations from a re-analysis of the deposited data

Results flagged for a closer look

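A set held the values of 1 listed gene in 1 group of 4 to 7 libraries. Sets share libraries and the share over all genes is not given, so nothing is read from their number. Of 163 such sets, 28 had a highest or lowest library far from the rest. Of these, 11 were in R replicate 3, a library poor in T cell transcripts: Shmt1 at 7.99 CPM (others 11.0 to 12.6), Pycr1 at 3.99 (others 0.554 to 1.10), Slc7a1 at 74.9 (others 124 to 144), Slc38a1 at 295 (others 380 to 421), Slc38a2 at 407 (others 231 to 287), Chac1 at 9.99 (others 0.228 to 0.78), Sesn2 at 37.9, Cebpb at 227, Cebpg at 147, Nupr1 at 46.8 and Jdp2 at 18.8 CPM. RO replicate 3, poor in them too, stood apart in Shmt2 at 39.9, Mthfd2 at 42.1, Slc7a1 at 87.0, Slc1a5 at 153, Sesn2 at 34.9, Cebpb at 335, Cebpg at 159, Nupr1 at 35.4 and Jdp2 at 19.4 CPM.

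In other libraries, rPS replicate 4 was high in Cebpb at 148 CPM (others 21.7 to 51.2) and in Slc6a9 at 14.9 (others 0.667 to 3.61). NT replicate 4 was high in Slc6a9 at 17.4 CPM, NT replicate 6 in Trib3 at 3.10 and NT replicate 3 in Cth at 0.112, which is under the level that a count of 0 allows. PS replicate 3 was low in Slc3a2 at 74.8 CPM (others 94.0 to 97.4) and in Trib3 at 1.28, and R replicate 2 was high in Atf5 at 8.42 CPM (others 4.44 to 5.46).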

How the results depend on the processing

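None of the members' called log2 differences changed sign under any alternative run. In rPS against NT, 6 genes were called, as with DESeq2 size factors, where 22.8% and 22.9% of all genes passed. DESeq2 called 9 (23.6% of all genes), no filter left 4 (8.37%) and the zeros of RO replicate 7 taken as listed left 3 (11.8%). Leaving out the 7 libraries poor in T cell transcripts left 3 (14.7%). The same while keeping NT replicate 5 (chosen after seeing the data) left 1 (3.19%), and marker covariates left 2 (9.86%). The share of all genes moved too, so nothing particular to the listed genes is read from these counts. In R against NT the single call (0.841% of all genes) became 0 with no filter (0.283%) and 0 with the zeros as listed (0.291%). It became 0 while keeping NT replicate 5 (0.241%) and 2 with covariates (1.86%). In PS against NT the single call (7.5% of all genes) became 2 by DESeq2 (15.7%). It became 0 with no filter (0.164%), with the zeros as listed (0.0291%), without the 7 libraries (7.62%), while keeping NT replicate 5 (0.0118%) and with covariates (0.0292%). With the zeros as listed Psat1, Atf4 and Slc38a1 lost their rPS calls (adjusted p = 0.342, 0.416 and 0.863) and Cbs, also listed at 0, kept its call (0.0412); the cause was not tested.

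Leaving out each library in turn gave 4 to 11 called genes in rPS against NT (11 without NT replicate 6, 10 without R replicate 3, 9 without RO replicate 3, where 27.4%, 27.8% and 26.6% of all genes passed), 0 to 3 in R against NT (3 without R replicate 3, where 3.91% of all genes passed), 0 to 4 in PS against NT (4 without NT replicate 6 or RO replicate 3, 3 without R replicate 3, with 15.7%, 16.1% and 16% of all genes) and 0 to 2 in RO against NT (2 without RO replicate 3, with 5.17%). Psat1, Cbs, Asns and Mthfd1l kept their rPS calls in all 28 omissions. The 6 comparisons among treated groups gave 0 in every setting run.

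With the replicate number as a replicate block, 4 genes were called in rPS against NT (Atf4 and Slc38a1 were not), where 12.4% of all genes passed. It gave 0 in R against NT (0.315% of all genes), 1 in PS against NT (Slc7a1 in place of Cbs, 7.71%) and 0 elsewhere. The labels do not pair the mice: of 41 pairs with the same number, 16 correlated above 0.1 (-0.42 to 0.81, median 0.06). Scaling by plain totals moved 4 of 165 group means by over 1 SD. Genes under about 5 CPM (Asns, Cbs, Chac1, Trib3, Pycr1, Aldh1l2, Cth) are limited by depth.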
